A study of Mus musculus with 10 samples.

Results

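The CXCR3 axis comprises 4 genes, the chemokines Cxcl9, Cxcl10 and Cxcl11 and their shared receptor Cxcr3, taken by symbol from a table of 54986 gene identifiers. Each of the 4 symbols had 1 line in the table, and all 4 lines passed the filter on low values, a mean of at least 1 FPKM over the 10 tumours. FPKM scales the fragments of a gene by its exon length and by the mapped fragments of the library, so levels of different genes can be compared per length.

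Poly-A RNA was sequenced from 10 tumours of Hepa1-6, a mouse hepatoma line that was originally derived from a C57L mouse. The cells were placed under the skin of C57/BL6 mice and left to grow for 4 weeks. The 5 tumours with titles beginning with G received GSK343, which blocks EZH2, the enzyme that places repressive methyl groups on histone H3. The 5 titles beginning with C name no treatment. These tumours were taken as vehicle, since GSK343 is the only treatment that any title names. The protocol also names a control antibody and an antibody to asialo-GM1, a glycolipid of mouse natural killer (NK) cells, without saying which tumours received either. Neither the differences between the groups nor the correlations across tumours can therefore be read against the antibodies, NK cell genes included. Whether the antibodies were divided evenly between the groups is not known. The model is 1 tumour line in C57/BL6 hosts, and host and tumour transcripts were measured together. Whether the antibody to asialo-GM1 altered the immune cells of any of these hosts is not known.

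CXCL9, CXCL10 and CXCL11 are secreted chemokines that bind CXCR3, a receptor found on activated T cells and NK cells, and thereby guide these cells into inflamed tissue and tumours. Interferon-gamma made by T and NK cells induces all of them. Cxcl9 depends most closely on interferon-gamma, whereas Cxcl10 also responds to type I interferon and to NF-kB.

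The ligand genes lie next to one another on the minus strand of mouse chromosome 5 (mm10), Cxcl9 at chr5:92321347-92328079, Cxcl10 at chr5:92346638-92348889 and Cxcl11 at chr5:92359544-92365485. Cxcr3 lies at chrX:101731535-101734269, also on the minus strand. Cxcl9, Cxcl10 and Cxcr3 are annotated as protein coding. GENCODE M21 lists Cxcl11 as a polymorphic pseudogene and RefSeq lists it as a transcribed pseudogene, because the reference genome, which comes from C57BL/6J, carries a shifted reading frame. The coding sequence is shown here as spliced in Cxcl11-202, which reads the genome letter for letter, and as in Cxcl11-201, which leaves out 2 genome bases (chr5:92363177-92363178) and so keeps the frame. Both begin at the same start codon, read on the minus strand between chr5:92361284-92363214, and the capitals mark the 2 bases that differ.
Cxcl11 as in the reference genome: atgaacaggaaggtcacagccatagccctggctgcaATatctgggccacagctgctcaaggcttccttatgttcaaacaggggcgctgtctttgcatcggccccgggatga
Cxcl11 with the frame kept: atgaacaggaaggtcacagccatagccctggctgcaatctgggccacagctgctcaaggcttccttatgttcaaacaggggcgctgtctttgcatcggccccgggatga
The genome reading met its first stop after 36 codons, the last bases shown, whereas the reading with the frame kept ran for 99 codons, close to the 98 codons of Cxcl10-201. The FPKM of Cxcl11 is therefore a level of RNA. The hosts are named C57/BL6, without a substrain, and would carry the shifted frame if they match the reference. These files do not separate reads by strain of origin, so which frame the tumour cells and the host cells transcribed was not tested.

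Promoter windows from RefSeq (GRCm38.p6, 250 bases before to 50 after the gene start, written in the direction of transcription) were available for Cxcl9, Cxcl10 and Cxcr3. Those of the 2 abundant ligands are shown because their transcripts moved together across tumours. Capitals mark matches to an interferon-stimulated response element (GAAANNGAAA) or an NF-kB site (GGGNNNNTCC). A gamma-activated site (TTCNNNGAA) was also sought, and all 3 motifs were searched on both strands.
Cxcl10 promoter, chr5:92348840-92349139, minus strand: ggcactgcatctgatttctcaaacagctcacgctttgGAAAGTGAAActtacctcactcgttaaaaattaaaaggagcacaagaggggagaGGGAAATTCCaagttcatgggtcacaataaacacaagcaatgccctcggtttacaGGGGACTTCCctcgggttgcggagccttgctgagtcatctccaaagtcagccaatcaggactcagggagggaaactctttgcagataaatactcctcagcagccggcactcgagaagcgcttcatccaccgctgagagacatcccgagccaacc
Cxcl9 promoter, chr5:92328030-92328329, minus strand: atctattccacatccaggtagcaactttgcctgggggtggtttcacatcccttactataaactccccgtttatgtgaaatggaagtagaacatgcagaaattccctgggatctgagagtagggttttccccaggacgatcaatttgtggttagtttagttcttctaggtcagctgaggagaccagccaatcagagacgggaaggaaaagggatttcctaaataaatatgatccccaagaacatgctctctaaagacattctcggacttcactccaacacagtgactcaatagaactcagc
The Cxcl10 window held 1 interferon-stimulated response element, starting 213 bases before the gene start, and 2 NF-kB matches, starting 159 and 104 bases before it, none of which overlap. Among all 32851 windows of this length, 3.44% held the response element, 19.2% the NF-kB letters and 8.30% the gamma-activated site. None of the 3 motifs occurred in the windows of Cxcl9 and Cxcr3. A match is only a match of letters, and these data do not measure binding. Sites with other letters or spacing would not be found, so the lack of a match does not show that a window lacks such sites.

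All 3 ligands and the receptor had higher mean levels in GSK343 tumours than in vehicle tumours, and none of the 4 differences passed the threshold of a Benjamini-Hochberg adjusted p under 0.05 in limma over all 14496 lines tested. In the same fit, 12 lines were called, which is 0.0828% of those tested, and 10 of them were higher after GSK343 (0.069%). All 4 members had an unadjusted limma p under 0.05 in the direction of higher values, as did 10.7% of lines. With 5 tumours in a group, the exact permutation test over the 252 ways to assign 5 of 10 tumours cannot give a p below 0.00794. In bulk tumours, fewer cells of a type and less RNA per cell cannot be told apart.

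Cxcl9 measured 155, 86.9, 244, 157 and 202 FPKM in GSK343 replicates 1 to 5, against 53.4, 125, 110, 56.2 and 46.0 FPKM in vehicle replicates 1, 2, 3, 5 and 6. GSK343 replicate 2 lay among the vehicle tumours, and the other 4 GSK343 tumours lay above every vehicle tumour. The means were 169 ± 58.7 FPKM with GSK343 and 78.1 ± 36.5 FPKM with vehicle (SD, n = 5 each), a ratio of 2.16. On the log2(FPKM + 1) scale used for every test, the difference was 1.14 ± 0.34 (SE; 95% interval 0.40 to 1.89), with a limma adjusted p of 0.192 and an exact two-sided permutation p of 0.0397.

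Cxcl10, the most abundant of the 4 by mean, measured 158, 114, 239, 202 and 196 FPKM in GSK343 replicates 1 to 5, against 42.7, 118, 119.5, 82.6 and 54.4 FPKM in vehicle replicates 1, 2, 3, 5 and 6. Again GSK343 replicate 2 alone overlapped the vehicle range, below vehicle replicates 2 and 3. The means were 182 ± 47.7 FPKM with GSK343 and 83.4 ± 35.2 FPKM with vehicle (SD, n = 5 each), a ratio of 2.18. The log2 difference was 1.19 ± 0.30 (SE; 95% interval 0.52 to 1.86), with a limma adjusted p of 0.191 and an exact permutation p of 0.0238. An exon of Cxcl10 shares 133 bases with Art3, a gene on the other strand that measured 3.50 to 10.5 FPKM in GSK343 tumours and 4.67 to 5.91 FPKM in vehicle tumours.

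Cxcl11 was the only member whose groups did not overlap. It measured 1.81, 3.43, 7.40, 5.39 and 5.29 FPKM in GSK343 replicates 1 to 5, against 0.323, 1.59, 1.41, 0.655 and 0.716 FPKM in vehicle replicates 1, 2, 3, 5 and 6. GSK343 replicate 1 was the lowest of its group and lay just above vehicle replicate 2, the highest of the other. Of all tested lines, 1.42% had every GSK343 tumour above every vehicle tumour. The means were 4.67 ± 2.13 FPKM with GSK343 and 0.938 ± 0.537 FPKM with vehicle (SD, n = 5 each), a ratio of 4.97. The log2 difference was 1.50 ± 0.29 (SE; 95% interval 0.85 to 2.14), rank 61 by size among the 14496 lines, with a limma adjusted p of 0.131 and the smallest exact permutation p the design allows, 0.00794. This scale understates differences of low genes, and with a pseudocount of 0.1 in place of 1 the Cxcl11 difference was 2.23. Without GSK343 replicate 1 the difference was 1.73 with a limma adjusted p of 0.0183, which passes the threshold. The gene lies within Art3, with which it shares no exonic base, and shares 1582 exonic bases with Gm2673, a processed pseudogene on the other strand that measured at most 0.0527 FPKM in any tumour.

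Cxcr3 measured 2.29, 1.71, 3.24, 1.83 and 4.26 FPKM in GSK343 replicates 1 to 5, against 0.511, 2.84, 1.47, 1.19 and 1.18 FPKM in vehicle replicates 1, 2, 3, 5 and 6. Only GSK343 replicates 3 and 5 lay above vehicle replicate 2, and the groups overlapped widely. The means were 2.66 ± 1.08 FPKM with GSK343 and 1.44 ± 0.861 FPKM with vehicle (SD, n = 5 each), a ratio of 1.85. The log2 difference was 0.61 ± 0.25 (SE; 95% interval 0.044 to 1.17), with a limma adjusted p of 0.257 and an exact permutation p of 0.0714. With a pseudocount of 0.1 it was 0.94.

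**Figure D1:**
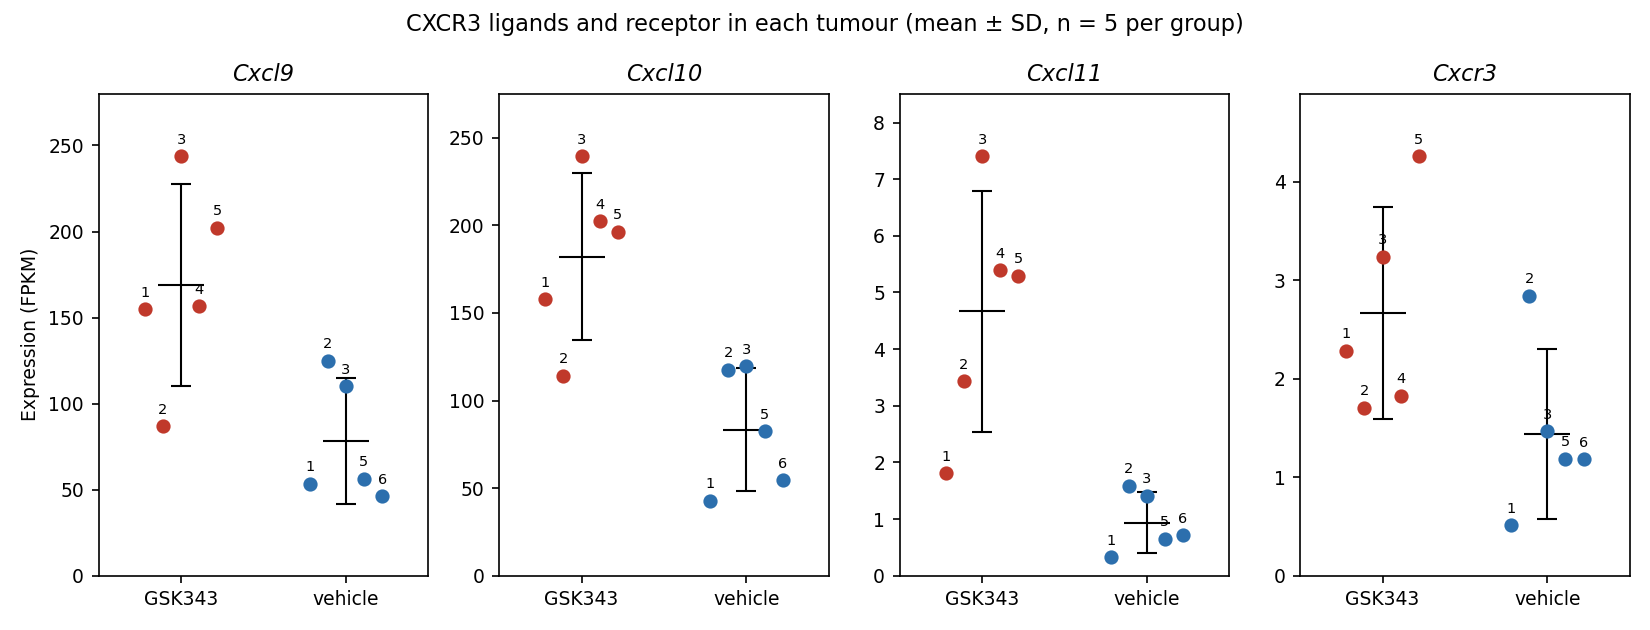
Level of each CXCR3 axis gene (vertical axis, FPKM, starting at 0) in every GSK343 tumour (red, left) and vehicle tumour (blue, right), with the replicate number above each point; the long bar is the mean and the whiskers are 1 SD (n = 5 per group). Only Cxcl11 shows no overlap between the groups, GSK343 replicate 2 lies inside the vehicle range of Cxcl9 and Cxcl10, and vehicle replicate 2 is the highest vehicle tumour for Cxcl9, Cxcl11 and Cxcr3.

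GSK343 replicates 3 and 5 had the highest shares of mitochondrial RNA, 7.17% and 7.11% of all FPKM, where the remaining 8 tumours had 2.63% to 5.05%. These 2 tumours also had the highest Cxcl9 and Cxcr3 values. Without them the log2 differences were 0.83 for Cxcl9, 0.99 for Cxcl10, 1.19 for Cxcl11 and 0.33 for Cxcr3, with limma adjusted p-values of 0.720 to 0.814. The differences of Cxcl9, Cxcl10 and Cxcl11 thus moved by less than 1.5 times and that of Cxcr3 by more. The inferred depth of the 10 libraries was 38.4 to 50.9 M reads (M, mega). The hepatocyte gene Alb, which encodes albumin, measured 2380.2 to 3061 FPKM in GSK343 tumours and 2878 to 3658 FPKM in vehicle tumours, as the hepatoma label would have it.

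Within a tumour the abundant ligands stayed close to parity. Cxcl9 was 0.760 to 1.03 times the FPKM of Cxcl10 in GSK343 tumours and 0.681 to 1.25 times in vehicle tumours, and the difference of their log2 ratio was -0.045 (exact permutation p = 0.802). Cxcl11 was 0.0117 to 0.0395 times the FPKM of Cxcl9 in GSK343 tumours and 0.00605 to 0.0155 times in vehicle tumours. Of the GSK343 tumours, replicate 1 had the lowest ratio, inside the vehicle range, and the other 4 lay above it. The log2 ratio of Cxcl11 to Cxcl9 differed by 0.36 (exact permutation p = 0.262) and that to Cxcl10 by 0.31 (exact permutation p = 0.238). With a pseudocount of 0.1 the same ratios differed by 1.08 and 1.03, each with an adjusted exact permutation p of 0.119 over the 10 ratios compared. A larger difference for Cxcl11 than for the other ligands therefore did not pass the threshold on either scale, although its size depended on the pseudocount.

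The abundant ligands exceeded the receptor many times over, with factors that overlapped between the groups. Cxcl9 was 47.5 to 85.7 times Cxcr3 in GSK343 tumours and 38.9 to 105 times in vehicle tumours. Cxcl11 was 0.791 to 2.95 times Cxcr3 in GSK343 tumours and 0.551 to 0.959 times in vehicle tumours. The log2 ratios to Cxcr3 differed by 0.54 for Cxcl9, 0.58 for Cxcl10 and 0.89 for Cxcl11, with exact permutation p-values of 0.0635, 0.0556 and 0.0238, and each had an adjusted p of 0.198 over the 10 ratios compared. With a pseudocount of 0.1 these differences were 0.21, 0.26 and 1.29. Cxcr3 was 0.148 to 0.304 times Cd3e, a subunit of the T cell receptor complex, in GSK343 tumours and 0.0782 to 0.267 times in vehicle tumours, and their log2 ratio differed by -0.042 (exact permutation p = 0.897). With a pseudocount of 0.1 that difference was 0.22, so its sign is not fixed.

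Ratios to leukocyte genes depended on the gene chosen. Ptprc, which encodes the leukocyte antigen CD45, measured 5.60 to 31.0 FPKM in GSK343 tumours and 1.74 to 7.22 FPKM in vehicle tumours. Its log2 difference of 1.93 was the largest of 10 pan-leukocyte genes, whose median was 0.76. The log2 ratios to Ptprc differed by -0.78 for Cxcl9, -0.74 for Cxcl10 and -0.43 for Cxcl11, with exact permutation p-values of 0.0794, 0.135 and 0.444. Set against the mean of the other 9 pan-leukocyte genes, a denominator chosen after the values were seen, the same ligands differed by 0.43, 0.47 and 0.78, with exact permutation p-values of 0.0873, 0.0873 and 0.0397. These carry the opposite sign, and none passed adjustment over the 10 ratios (lowest adjusted p 0.146).

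The mean log2 level of the 10 pan-leukocyte genes was also entered in the limma fit as a covariate. The differences were then 0.22 for Cxcl9, 0.49 for Cxcl10, 1.02 for Cxcl11 and -0.093 for Cxcr3, with limma adjusted p-values of 0.889 or above. With Ptprc left out of that score they were 0.31, 0.55, 1.05 and -0.020. The sum of the 10 pan-leukocyte genes was 516 to 892 FPKM in GSK343 tumours and 254 to 727 FPKM in vehicle tumours. The ligand differences are thus smaller, and that of Cxcr3 changes sign, once the leukocyte level of each tumour is taken into account. The score is itself higher on average with GSK343, so a difference in treatment and one in leukocyte content cannot be told apart fully by this fit.

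**Figure D2:**
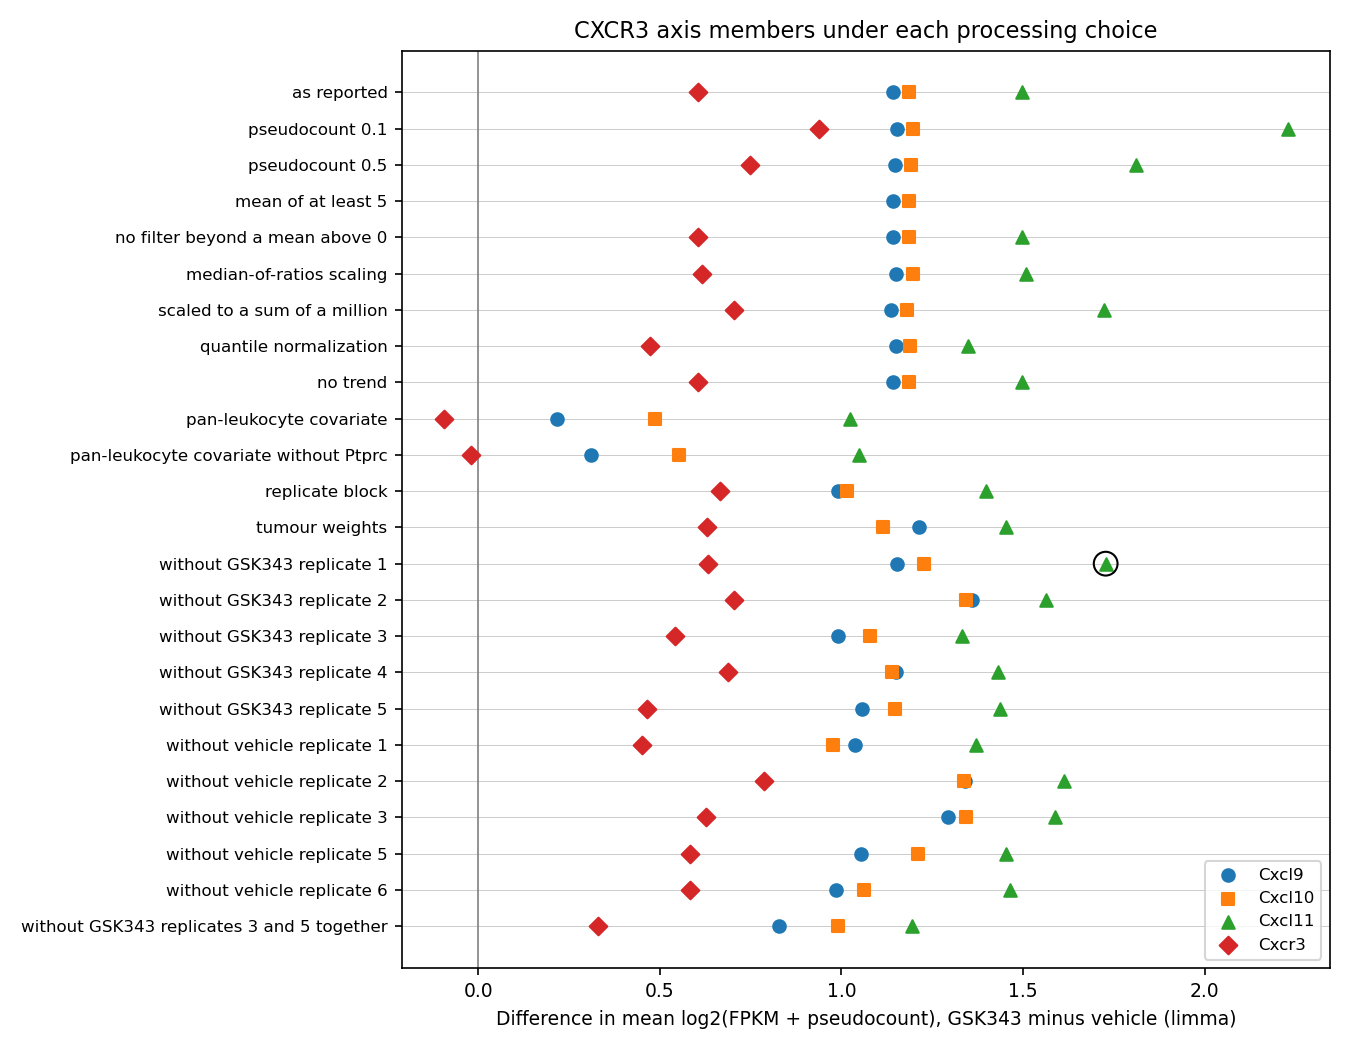
Difference in mean log2(FPKM + pseudocount) between GSK343 and vehicle tumours (horizontal axis, limma) for the 4 genes under the reported choice and each alternative (rows); a ring marks an adjusted p under 0.05. The differences stay above 0 except for Cxcr3 with a pan-leukocyte covariate (-0.093, and -0.020 without Ptprc), and the only ring is Cxcl11 without GSK343 replicate 1.

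Ifng encodes interferon-gamma, the inducer of the ligands. It measured 5.33, 4.44, 20.8, 6.78 and 11.7 FPKM in GSK343 replicates 1 to 5, against 1.68, 7.38, 4.70, 1.57 and 1.49 FPKM in vehicle replicates 1, 2, 3, 5 and 6. GSK343 replicates 3 and 5 were the highest, and vehicle replicates 2 and 3 overlapped the lower GSK343 tumours. The log2 difference was 1.302 ± 0.45 (SE), with a limma adjusted p of 0.210. None of the 10 genes of interferon-gamma signalling was called, 4 had an unadjusted p under 0.05, all higher, and their median difference was 0.28, beside -0.011 for all lines. The interferon-gamma receptor chains differed by -0.32 for Ifngr1 and 0.13 for Ifngr2, with limma adjusted p-values of 0.581 and 0.507. Irf1, a transcription factor that interferon-gamma induces, averaged 138 ± 53.8 FPKM with GSK343 and 152 ± 56.9 FPKM with vehicle, a log2 difference of -0.13 (limma adjusted p = 0.850). Its highest GSK343 tumour was replicate 1 at 214 FPKM, while GSK343 replicate 3, the highest for Ifng, had 107 FPKM. Socs1, a feedback inhibitor of the pathway, averaged 14.7 ± 4.57 FPKM with GSK343 and 7.20 ± 5.78 FPKM with vehicle (log2 difference 1.35, limma adjusted p = 0.294), and vehicle replicate 5 was listed at 0.0349 FPKM. Without that tumour the difference of Socs1 was 0.72 (limma adjusted p = 0.393). The cause of that low value was not tested.

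Other genes that interferon-gamma induces were higher on average as well. Of 20 such genes outside the axis, none was called, 18 had an unadjusted p under 0.05, all higher, and the median difference was 0.72. Ciita, the activator of MHC class II genes, Iigp1, an immunity-related GTPase, and Gbp6, a guanylate-binding protein, differed by 0.98, 1.05 and 1.46 on the log2 scale, with limma adjusted p-values of 0.167, 0.189 and 0.191. The groups did not overlap for Gbp6, which measured 22.8 to 37.5 FPKM in GSK343 tumours and 4.19 to 17.6 FPKM in vehicle tumours.

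The other inputs to the ligand genes were examined in the same way. Of 7 tested genes of type I interferon signalling, 3 had an unadjusted p under 0.05, none was called, and the median difference was 0.38. Stat2, Tyk2 and Irf9, which carry the type I interferon signal, differed by 1.02, 0.38 and 0.68, with limma adjusted p-values of 0.191, 0.192 and 0.221. Ifnb1, which encodes interferon-beta, measured at most 0.186 FPKM in GSK343 tumours and at most 0.0896 FPKM in vehicle tumours, below the filter. Of 9 genes of NF-kB and TNF input, 4 had an unadjusted p under 0.05, none was called, and the median was 0.23. Tnf, which encodes an inflammatory cytokine, averaged 2.29 ± 1.19 FPKM with GSK343 and 0.793 ± 0.455 FPKM with vehicle, and differed by 0.85 on the log2 scale (limma adjusted p = 0.191). Nfkbia, an NF-kB inhibitor that NF-kB itself induces, differed by 0.46 (limma adjusted p = 0.192). Of 11 genes that link interleukin-12 and interleukin-18 to interferon-gamma, 6 were tested, 4 had an unadjusted p under 0.05 and none was called, with a median of 0.45. Il18rap, a receptor chain for interleukin-18, differed by 0.59 and Tbx21, the transcription factor T-bet that drives Ifng and Cxcr3 in lymphocytes, by 0.58, with limma adjusted p-values of 0.191 and 0.222. Il12b, which encodes a subunit of interleukin-12, measured at most 0.326 FPKM in GSK343 tumours and at most 0.190 FPKM in vehicle tumours.

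A list of 7 genes held those that process or bind the ligands outside CXCR3, together with the chemokine gene Pf4. Of the 7, 5 were tested, 2 had an unadjusted p under 0.05, Pf4 among them, and none was called. Dpp4, a protease that trims CXCR3 ligands, averaged 1.67 ± 0.265 FPKM with GSK343 and 1.03 ± 0.430 FPKM with vehicle, a log2 difference of 0.42 (limma adjusted p = 0.213). Pf4, which encodes the platelet chemokine CXCL4, averaged 42.1 ± 8.51 FPKM with GSK343 and 29.5 ± 9.95 FPKM with vehicle, a log2 difference of 0.54 (limma adjusted p = 0.248). Ackr3, an atypical receptor that binds CXCL11 and CXCL12, differed by -0.033 (limma adjusted p = 0.947).

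**Figure D3:**
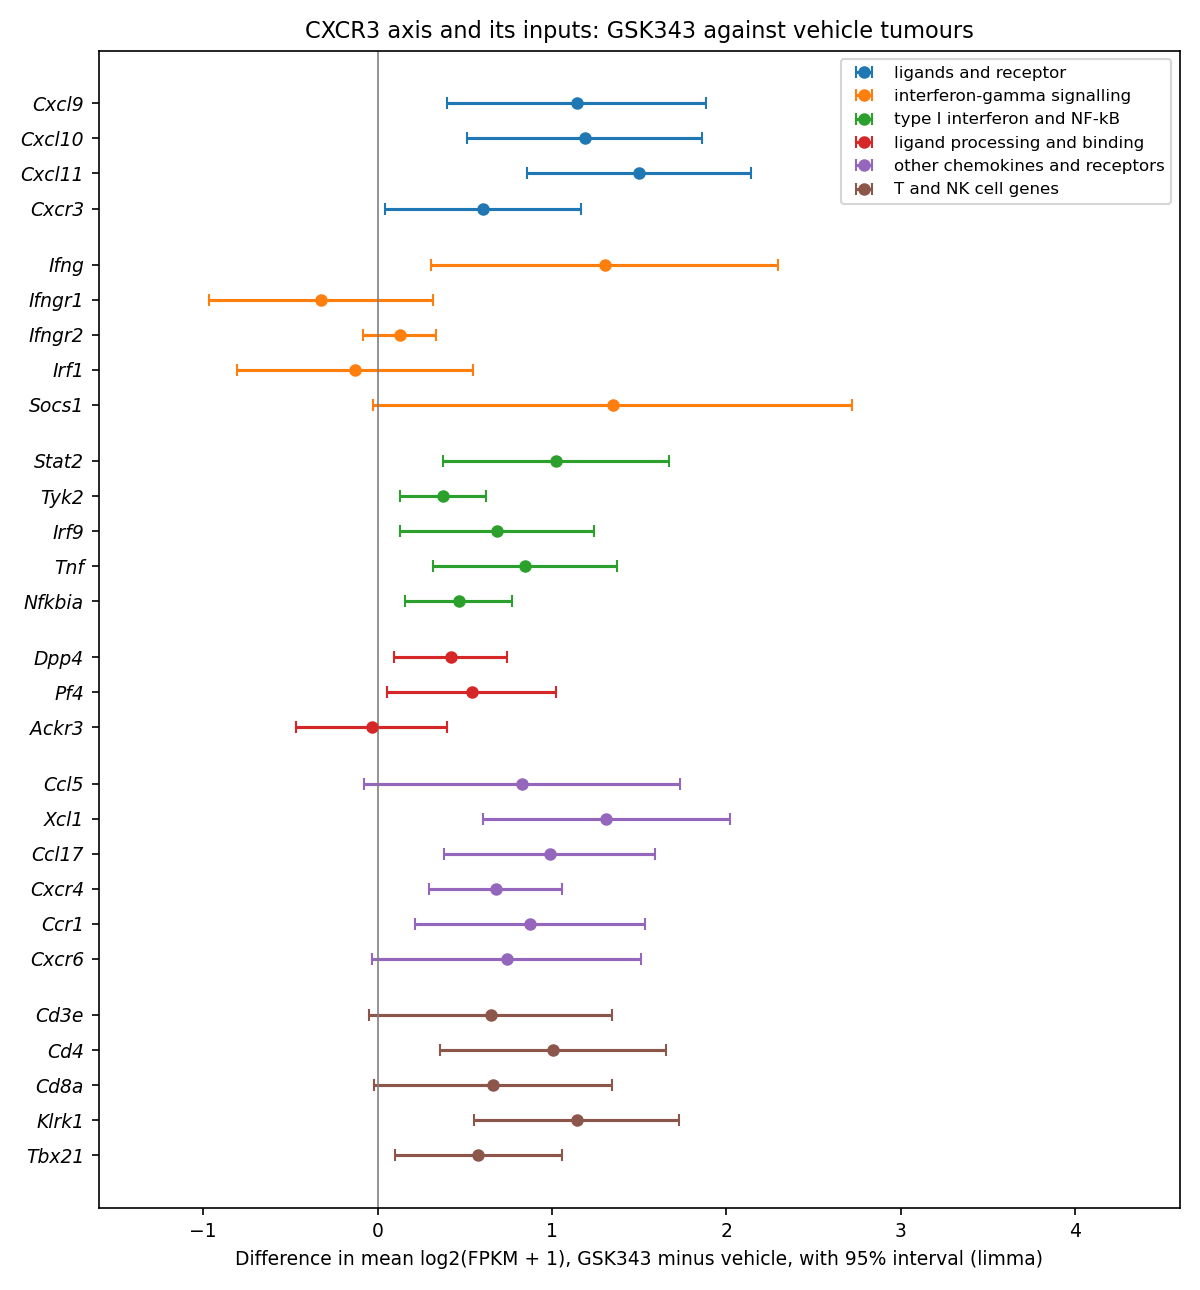
Difference in mean log2(FPKM + 1), GSK343 minus vehicle, with its 95% interval from limma (horizontal axis), for genes coloured by role (rows). The rows are the CXCR3 axis genes, their interferon and NF-kB inputs, ligand processing and binding, other chemokines and receptors, and T and NK cell genes. Pf4, itself a chemokine gene, is drawn with ligand processing and binding. The ligands lie at 1.14 to 1.50, whereas Ifngr1, Irf1 and Ackr3 lie below 0, with intervals that include 0.

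Other chemokines that act on lymphocytes were measured beside the CXCR3 ligands. Of 13 other tested chemokines, none was called, 6 had an unadjusted p under 0.05, all higher, and the median difference was 0.83, beside 1.16 for the 4 axis genes. Xcl1, a chemokine of activated T and NK cells, measured 5.80 to 12.7 FPKM in GSK343 tumours and 0.707 to 5.004 FPKM in vehicle tumours, without overlap (log2 difference 1.31, limma adjusted p = 0.189). Ccl17, a ligand of the receptor CCR4, differed by 0.99 (limma adjusted p = 0.191) and Ccl5, a chemokine of T and NK cells, by 0.83 (limma adjusted p = 0.322). Of 7 other tested chemokine receptors, 3 had an unadjusted p under 0.05, none was called, and the median was 0.68, close to the 0.61 of Cxcr3. Cxcr4, the receptor for CXCL12, differed by 0.68 and Ccr1, a receptor of myeloid cells, by 0.87, with limma adjusted p-values of 0.191 and 0.208. Cxcr6, a receptor of resident T and NK cells, differed by 0.74 (limma adjusted p = 0.303).

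Markers of the cells that carry the receptor or make the ligands were also higher on average, and their part in the ligand values was not tested. T cell markers, 20 of 20 tested, summed to 208 to 384 FPKM in GSK343 tumours and 134 to 292 FPKM in vehicle tumours. None was called, 6 had an unadjusted p under 0.05, and the median difference was 0.63. The surface antigen gene Thy1 differed by 0.45 and the helper T cell coreceptor gene Cd4 by 1.01, with limma adjusted p-values of 0.191 and 0.192. Thy1 measured 86.5 to 119 FPKM in GSK343 tumours and 66.3 to 95.2 FPKM in vehicle tumours, a large part of the T cell marker sum. The cytotoxic T cell coreceptor gene Cd8a differed by 0.66 and Cd3e by 0.65, with limma adjusted p-values of 0.298 and 0.317. NK cell markers, 13 of 18 tested, summed to 73.6 to 248 FPKM in GSK343 tumours and 52.4 to 161 FPKM in vehicle tumours. Of the 13, 12 were higher on average and 1 lower, 7 had an unadjusted p under 0.05, none was called, and the median difference was 0.77. Nkg7, at 18.0 to 79.6 FPKM with GSK343 and 17.7 to 59.4 FPKM with vehicle, was a large part of this sum. So was Gzmb, at 11.8 to 46.7 FPKM with GSK343 and 7.44 to 30.4 FPKM with vehicle. The sum is therefore not a measure of NK cell content. Klrk1, which encodes the activating receptor NKG2D of NK and T cells, measured 4.38 to 11.2 FPKM in GSK343 tumours and 1.67 to 4.11 FPKM in vehicle tumours, without overlap, and differed by 1.14 (limma adjusted p = 0.189). The genes that define NK cells most closely were below the filter. Ncr1, which encodes the receptor NKp46, measured 0.290 to 1.27 FPKM in GSK343 tumours and 0.124 to 0.503 FPKM in vehicle tumours. Klrb1c, which encodes the antigen NK1.1, measured 0.533 to 2.96 FPKM in GSK343 tumours and 0.203 to 0.927 FPKM in vehicle tumours.

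Macrophage and monocyte markers, 15 of 15 tested, summed to 1111 to 2266 FPKM in GSK343 tumours and 509 to 1952 FPKM in vehicle tumours. Of these 12 had an unadjusted p under 0.05, none was called, and the median difference was 0.93. Msr1, a scavenger receptor, differed by 0.93 (limma adjusted p = 0.199) and Adgre1, which encodes the macrophage antigen F4/80, by 1.04 (limma adjusted p = 0.208). Among dendritic cell markers, 6 of 11 tested, 5 had an unadjusted p under 0.05 and none was called, with a median of 0.46. Batf3 and Clec9a, both of the cross-presenting subset, differed by 0.69 and 0.60, with limma adjusted p-values of 0.189 and 0.191. Markers of skeletal muscle, a tissue next to tumours under the skin, were measured as well. They summed to 49.1 to 361 FPKM in GSK343 tumours and 1.36 to 88.7 FPKM in vehicle tumours. Of these 7 genes, 6 had an unadjusted p under 0.05, all higher, and none was called. Their median difference was 1.76, above the 1.16 of the 4 axis genes. Hepatocyte and hepatoma markers summed to 5205 to 6532 FPKM in GSK343 tumours and 6304 to 8444 FPKM in vehicle tumours. Of these 10 genes, 4 had an unadjusted p under 0.05, all lower. Over all 14496 lines, 2547 had one in either direction, and 1552 of those lines were higher. None of the 10 hepatocyte and hepatoma genes was called, and their median was -0.21. The part of this tissue mixture in the chemokine values was not tested.

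Across the 10 tumours the members varied together. Cxcl9 and Cxcl10 had a Pearson r of 0.95 on log2(FPKM + 1) and a Spearman rho of 0.96 (adjusted permutation p = 0.000300 for each, over 6 pairs of members). Cxcl10 and Cxcl11 had r = 0.90, and Cxcl9 and Cxcl11 r = 0.86. With the group means removed the same pairs had r = 0.89, 0.74 and 0.67, with adjusted permutation p-values of 0.0192, 0.0240 and 0.0467. All of these transcripts share the library and the leukocyte content of a tumour.

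Each ligand was then compared with 10 partner genes, 30 relations in all, namely the receptor, Ifng, 3 T cell genes, 3 NK cell genes, Adgre1 and Ptprc. Over all 10 tumours r ranged over 0.67 to 0.97, and all 30 had an adjusted permutation p under 0.05 for Pearson's r, as had 28 for Spearman's rho. So high an r was common in these data, since 7.62% of lines had an r of at least 0.8 with Cxcl9, 5.75% with Cxcl10 and 3.58% with Cxcl11. The lowest of the 30, 0.67 for Cxcl11 with Klrb1c, was reached by 10.2% of lines. With the group means removed, 9 of 30 kept an adjusted permutation p under 0.05, 7 of them for Cxcl9, 1 for Cxcl10 and 1 for Cxcl11. A group-centred r of at least 0.8 was found in 3.84% of lines with Cxcl9, 1.77% with Cxcl10 and 0.373% with Cxcl11. Of the relations that passed, those of Cxcl9 with Cxcr3, Cd3e and Ncr1 were reached by 4.59%, 4.57% and 6.78% of lines. Without the 2 tumours farthest from the partner's median, 19 of 30 had an unadjusted permutation p under 0.05, and 7 of the 11 that did not were relations of Cxcl11.

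Ifng was the only partner past the threshold with all 3 ligands after the group means were removed. Over all 10 tumours Klrk1 lay slightly above Ifng with each ligand, at r = 0.97, 0.91 and 0.90 for Cxcl9, Cxcl10 and Cxcl11. As high an r was reached by 0.269%, 1.09% and 0.407% of lines. The group-centred r of Klrk1 was 0.77 with Cxcl10 and 0.69 with Cxcl11 (adjusted permutation p = 0.0538 and 0.0861). Cxcl9 and Ifng had r = 0.96 and rho = 0.95 (adjusted permutation p = 0.000600 and 0.00360), r = 0.95 without GSK343 replicate 3 and vehicle replicate 6, and a group-centred r of 0.93 (adjusted permutation p = 0.00417). Only 0.373% of lines had as high an r with Cxcl9. Cxcl10 and Ifng had r = 0.90, rho = 0.87 and a group-centred r of 0.80 (adjusted permutation p = 0.0417), and 1.52% of lines had as high an r with Cxcl10. Cxcl11 and Ifng had r = 0.89, rho = 0.81 and a group-centred r of 0.82 (adjusted permutation p = 0.0380), and 0.607% of lines had as high an r with Cxcl11. Without the 2 farthest tumours r was 0.85 for Cxcl10 and 0.82 for Cxcl11.

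**Figure D4:**
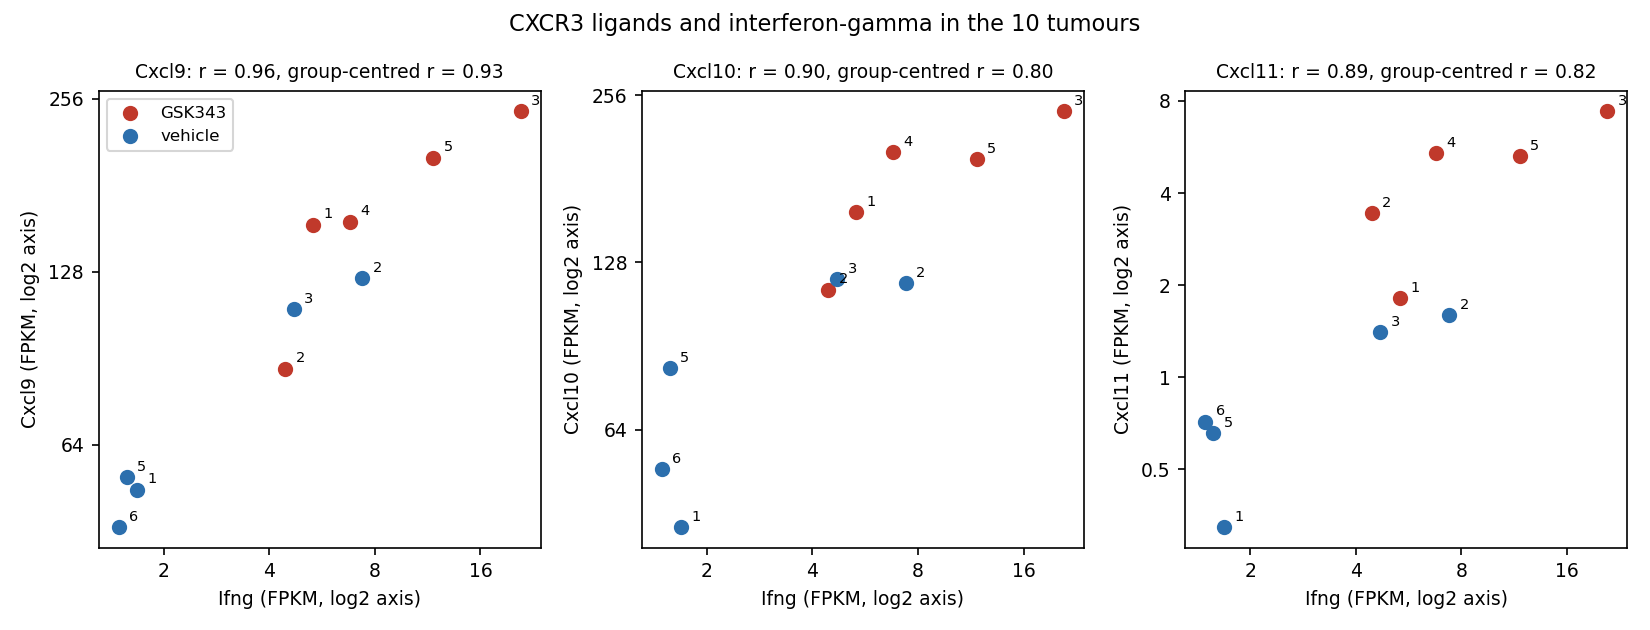
FPKM of each ligand (vertical axis, log2 scale) against FPKM of Ifng (horizontal axis, log2 scale) in the 5 GSK343 tumours (red) and 5 vehicle tumours (blue), labelled by replicate number. GSK343 replicate 3 is highest on both axes in each panel (Ifng 20.8 FPKM), and vehicle replicates 2 and 3 lie among the GSK343 tumours for Ifng while their Cxcl11 stays below every GSK343 tumour.

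The receptor tracked Cxcl9 more closely than the other ligands by value. Cxcl9 and Cxcr3 had r = 0.86, rho = 0.92 and a group-centred r of 0.77 (adjusted permutation p = 0.0380). Cxcl10 and Cxcr3 had r = 0.84, rho = 0.83 and a group-centred r of 0.74 (adjusted permutation p = 0.0526). Cxcl11 and Cxcr3 had r = 0.77, rho = 0.82 and a group-centred r of 0.61 (adjusted permutation p = 0.105). Without GSK343 replicate 5 and vehicle replicate 1, the farthest by Cxcr3, r was 0.85, 0.74 and 0.64, the last with a permutation p of 0.0929. Leaving out instead the 2 tumours farthest from the median of the ligand gave r = 0.82, 0.69 and 0.84. Which relation weakened thus depended on the gene that picked the tumours. The differences between these correlations were not tested.

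Among the T and NK cell genes the highest values were those of Cxcl9 with Klrk1 (r = 0.97, group-centred r = 0.94, adjusted permutation p = 0.0146 for the second) and with Cd4 (r = 0.94, group-centred r = 0.88, adjusted permutation p = 0.0201). Cxcl9 with Cd8a, Cd3e and Ncr1 had group-centred r of 0.84, 0.77 and 0.72, with adjusted permutation p-values of 0.0219, 0.0325 and 0.0380. Ncr1 was below the filter, and without GSK343 replicates 3 and 5 its r with Cxcl9 was 0.71 (unadjusted permutation p = 0.0525). Cxcl11 gave the lowest values once the group means were removed, 0.30 with Klrb1c, 0.31 with Ptprc and 0.34 with Adgre1. Over all tumours the same relations had r of 0.67, 0.76 and 0.71.

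**Figure D5:**
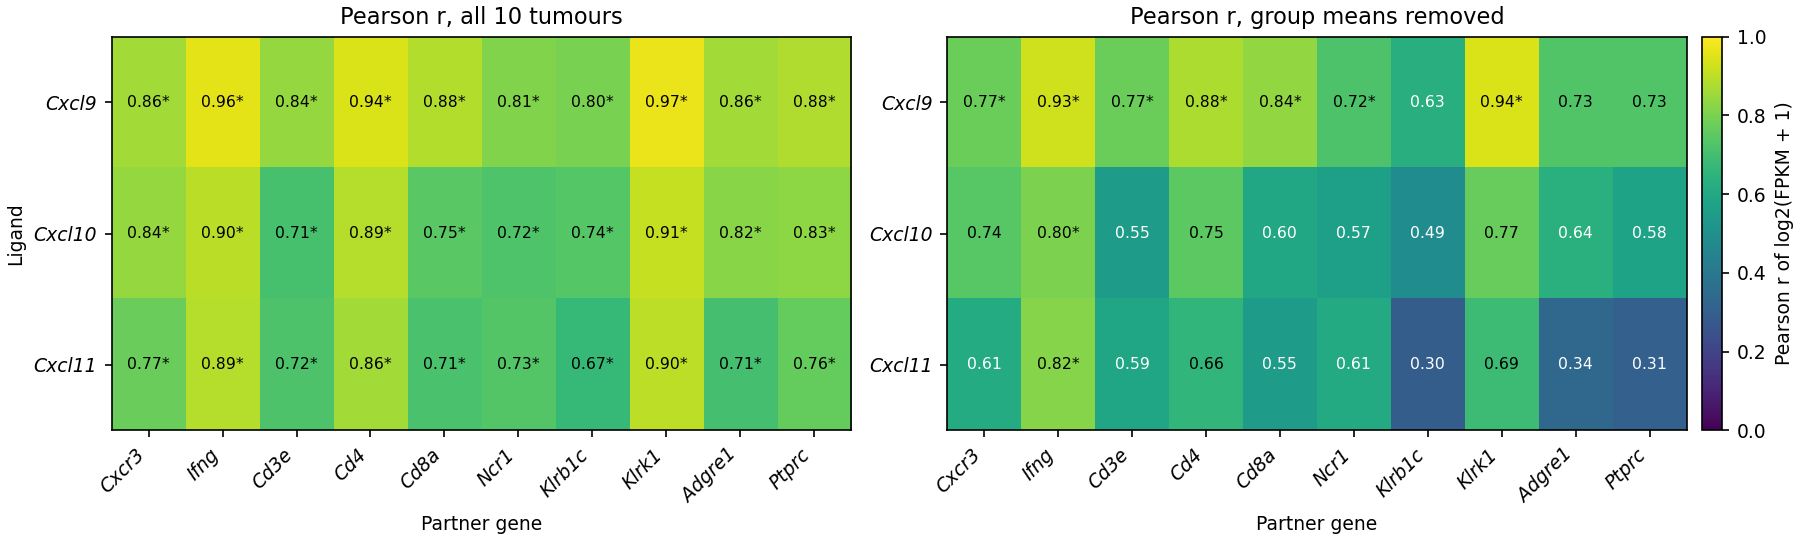
Pearson r of log2(FPKM + 1) between each ligand (rows) and 10 partner genes (columns) over all 10 tumours (left) and after removal of the group means (right); colour and number give r, and an asterisk an adjusted permutation p under 0.05 over 30 relations. All 30 carry an asterisk on the left and 9 on the right, 7 of them in the Cxcl9 row, with r of 0.93, 0.80 and 0.82 in the Ifng column.

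The genes most like each member were found among 11333 protein-coding genes by group-centred Pearson r over the 10 tumours, given as a description. For Cxcl9 they were Serpina3f (r = 0.98), Acod1, Tapbpl, C2 and Fam26f (0.97). For Cxcl10 they were Irgm2 (0.99), Tgtp2, Tgtp1, Irgm1 and Parp14 (0.97), where Tgtp1 and Tgtp2 are near-identical copies whose reads may be split. Cxcl11 had lower maxima, with Serf2 (0.94), Apol9a, Trex1, Ikzf1 and Ccdc73 (0.91). For Cxcr3 they were Ccl7 (0.98), Lpxn, Ch25h, Cdc42 and Pqlc3 (0.97). The 4 lists shared no gene.

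Ezh2, the target of the inhibitor, averaged 44.8 ± 6.60 FPKM with GSK343 and 55.2 ± 7.65 FPKM with vehicle (SD, n = 5 each), a log2 difference of -0.30 (limma adjusted p = 0.233). An inhibitor of the enzyme need not lower its transcript, so this value does not check the labels.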

How the data were processed

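The authors deposited 1 table of genes by tumours that names no unit. Its deposited values behave as FPKM, with sums of 574547 to 623397 per tumour. The submitters' processing notes name the aligner HISAT2 2.1.0, the assembler StringTie 1.3.3b, the trimmer Trimmomatic 0.33 and the build mm10. The strand setting is not given in the sources used here, and genes on opposite strands therefore cannot be told apart. Depth was inferred from the steps of the low values, which gave no whole reads, so no counting interval is printed. The series' text calls the tumours biological replicates, and p-values measure the spread between them.

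From the table, log2(FPKM + 1) was tested by limma (version 3.58.1, R 4.3.3, trended variance) on 14496 lines, those averaging 1 FPKM or more, at a two-sided Benjamini-Hochberg adjusted p under 0.05. The limma fit was also run on simulated data with independent noise for each line. That check does not cover variation that lines share across tumours. Ratios were compared by an exact permutation test over 252 assignments. Correlations were tested with 100000 permutations, and group-centred ones over all 14400 orders within groups (scipy 1.17.1), with adjustment over 30 relations and 10 ratios. Genes named are the 4 members, 10 partners, a fixed set of pathway genes, up to 4 genes of smallest p in a list, and the 5 genes most like each member, and some of the fixed set are not reported here. The members and lists were chosen with earlier results of these data known. Alternatives covered the pseudocount, filter, scaling, variance trend, tumour weights, leukocyte covariates, replicate block and tumours left out. Sequences and gene types came from GENCODE M21 and RefSeq GRCm38.p6, and plots from matplotlib 3.10.9.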

Additional observations from a re-analysis of the deposited data

Results flagged for a closer look

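Among 41 genes named here, each group of 5 tumours was searched for a tumour that stood far from the others on the log2(FPKM + 1) scale, at Dixon's critical value of 0.71. Of 82 groups, 4 held one, and chance alone gives about 1 in 20. No group of Cxcl9, Cxcl10, Cxcl11 or Cxcr3 held one. Ccl5 was 226 FPKM in vehicle replicate 2, far above the other vehicle tumours. Thy1 was 86.5 FPKM and Clec9a 1.58 FPKM in GSK343 replicate 4, far below the other GSK343 tumours. Ezh2 was 56.3 FPKM in GSK343 replicate 2, far above the other GSK343 tumours.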

How the results depend on the processing

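The log2 differences of Cxcl9, Cxcl10 and Cxcl11 stayed above 0 under every alternative run, and that of Cxcr3 under all but the covariates. Leaving out 1 tumour at a time gave 0.98 to 1.36 for Cxcl9, 0.98 to 1.34 for Cxcl10, 1.33 to 1.73 for Cxcl11 and 0.45 to 0.79 for Cxcr3, and the only pass was Cxcl11 without GSK343 replicate 1 (limma adjusted p = 0.0183). With a pan-leukocyte covariate, 2 lines were called, also without Ptprc in it, and these genes changed sign: Cxcr3 (-0.093, and -0.020 without Ptprc), Ifngr1 (0.013, 0.024), Ifngr2 (-0.060, -0.041), Ccl5 (-0.31, -0.21), Cxcr6 (-0.20, -0.091), Cd3e (-0.19, -0.13), Cd8a (-0.20, -0.12) and, with Ptprc in it, Tbx21 (-0.027). Ackr3 was 0.074 with tumour weights, and Irf1 was 0.079 without GSK343 replicates 3 and 5. Leaving out 1 tumour gave -0.18 to 0.077 for Ackr3 and -0.33 to 0.038 for Irf1. For Ifngr1 it gave -0.49 to -0.11, with -0.11 without vehicle replicate 5 and -0.16 without vehicle replicate 6, and for Ifngr2 0.070 without vehicle replicate 1.

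The count of lines called, 12 as reported, was 3 with a mean of at least 5, 6 with no filter, 7 with quantile normalization and 4 without GSK343 replicates 3 and 5. Leaving out 1 tumour gave 3 to 98, the highest being 98 without vehicle replicate 2 and 37 without GSK343 replicate 1. Shared replicate numbers did not pair the tumours, with correlations of -0.33 to 0.035 between same-numbered tumours. With a replicate block, 2 lines were called and the members differed by 0.99 (Cxcl9), 1.01 (Cxcl10), 1.40 (Cxcl11) and 0.66 (Cxcr3).

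Among ratios, leaving out 1 tumour gave 0.20 to 0.57 for Cxcl11 to Cxcl9 (lowest and highest without GSK343 replicates 2 and 1), 0.22 to 0.50 for Cxcl11 to Cxcl10 (highest without GSK343 replicate 1), -0.16 to 0.059 for Cxcl9 to Cxcl10, -0.15 to 0.10 for Cxcr3 to Cd3e, -1.11 to -0.64 for Cxcl9 to Ptprc and -1.12 to -0.54 for Cxcl10 to Ptprc. The number past the threshold was 0 to 2, the 2 being Cxcl9 and Cxcl10 to Ptprc without GSK343 replicate 4 (adjusted exact p = 0.0397). With a pseudocount of 0.1, Cxcl11 to Ptprc was 0.035 and Cxcr3 to Cd3e 0.22, and with the other 9 leukocyte genes the ratios of Cxcl9, Cxcl10 and Cxcl11 were 0.43, 0.47 and 0.78. Of 30 correlations, 9 passed with group means removed and 14 without GSK343 replicates 3 and 5. With group means removed, r was 0.74 for Cxcl10 and 0.61 for Cxcl11 with Cxcr3. Without GSK343 replicates 3 and 5, Cxcl11 had r = 0.60 with Cxcr3 and 0.77 with Ifng, and leaving out 1 tumour gave 0.69 to 0.84 for Cxcl11 with Cxcr3. The causes were not tested. A planned fit without vehicle replicate 2 and GSK343 replicate 4 was not run, since those tumours were picked by their measured values. With FPKM alone the counting error of low genes such as Cxcl11 and Cxcr3 is unknown.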
